A study of Homo sapiens with 24 samples.

Results

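Tumour cells carry surface and secreted molecules that damp immune attack, and transcripts of 8 such genes are described here in a human lung adenocarcinoma line. The genes are CD274, PDCD1LG2, LGALS9, TNFRSF14, CD47, NT5E, CD276 and PVR. They were chosen by name as checkpoint ligands and related immune brakes of tumour cells, with earlier results of these data known, and they are 8 of the 60609 gene rows in the deposited table. All 8 were among the 16062 genes with enough signal to be tested, which means at least 1 TPM (an abundance scaled for transcript length and to a fixed total per library) in at least 3 libraries.

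The study measured polyadenylated RNA from A549 cells to follow the response to interferon beta (IFN) when BOP1, a factor needed to build the large ribosomal subunit, is depleted. Cells were transfected for 48 h with a SMARTpool of siRNAs against BOP1 (siBOP1) or with siRNA against firefly luciferase (siFLuc), which has no target in human cells. Mock treatment or IFN at 1000 U/mL followed, and cells were harvested after 8 h or 12 h. This gave 8 groups of 3 libraries and 24 libraries in all, named by siRNA, treatment and time. All groups share the A549 background and the transfection, and no untransfected cells were analysed here. The knockdown was partial, with BOP1 at 32.4 to 78.8 TPM in the siFLuc libraries and 10.0 to 19.5 TPM in the siBOP1 libraries. The labels name no other cells in the cultures, and how deeply each library was sequenced cannot be read from TPM.

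Checkpoint ligands are proteins on a tumour or antigen-presenting cell that bind inhibitory receptors on T cells, natural killer cells or macrophages and raise the threshold for killing or engulfment. Type I interferons signal through JAK1 and TYK2 to a complex that includes STAT2 and IRF9 and binds the interferon-stimulated response element (ISRE) in the promoters of its targets. CD274 (PD-L1) is a well known target of interferon signalling, where IRF1 acts as one of its activators. The data hold RNA only, so protein at the cell surface was not measured.

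RefSeq promoter windows (GRCh38.p14, 250 bases before to 50 bases after the gene start) were found for 7 of the 8 genes. These windows were searched on both strands for the ISRE core, which is GAAA, any 2 bases, GAAA. They were also searched for a STAT site, TTCNNNGAA, and for an NF-kB-like site, which is GGGA, any 4 bases, CC. The ISRE core was found in 2 of the 7 genes, CD274 and LGALS9, against 3.57% of all 34943 windows. Both promoters are shown because these genes had the largest rises described below. Each stretch is 260 bases on the plus strand of GRCh38.p14, ends 10 bases past the RefSeq start, and has the letters of the ISRE core matches in capitals. The CD274 stretch is at chr9:5450292-5450551 and the LGALS9 stretch at chr17:27630938-27631197. The RefSeq starts used here lie downstream of the gene starts in GENCODE 29, by 39 bases for CD274 and by 1390 bases for LGALS9, so the LGALS9 stretch lies wholly inside the gene as GENCODE 29 draws it. The same holds for the windows of CD47 (831 bases), TNFRSF14 (732), NT5E (499) and CD276 (417 and 804), while PVR is offset by 112 bases. For these genes the bases before the GENCODE 29 start were not searched, so a missing match does not show that their promoters lack the motif.
CD274: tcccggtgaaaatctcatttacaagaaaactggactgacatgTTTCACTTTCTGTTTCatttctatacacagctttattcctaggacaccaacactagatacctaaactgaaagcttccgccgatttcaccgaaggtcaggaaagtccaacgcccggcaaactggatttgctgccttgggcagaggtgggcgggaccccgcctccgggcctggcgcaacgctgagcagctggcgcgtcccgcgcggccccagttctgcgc
LGALS9: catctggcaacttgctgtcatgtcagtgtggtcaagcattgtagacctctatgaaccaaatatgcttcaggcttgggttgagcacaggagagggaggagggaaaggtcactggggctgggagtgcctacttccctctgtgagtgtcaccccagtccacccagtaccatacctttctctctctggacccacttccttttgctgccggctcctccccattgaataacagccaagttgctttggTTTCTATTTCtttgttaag
In CD274 there were 2 ISRE core matches on the minus strand, at -208 to -199 and -202 to -193 from the RefSeq start, which share bases. The LGALS9 match, also on the minus strand, ran from -9 to 1, across the RefSeq start. A STAT site was found in CD274 alone of the 7 genes, at -125 to -117, and in 7.66% of all windows. The looser NF-kB-like site occurred in 6 of the 7 genes (all but CD47) and in 25.6% of windows. A match is only a match of letters in this window. The map of motif matches shows where they lie.

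**Figure D1:**
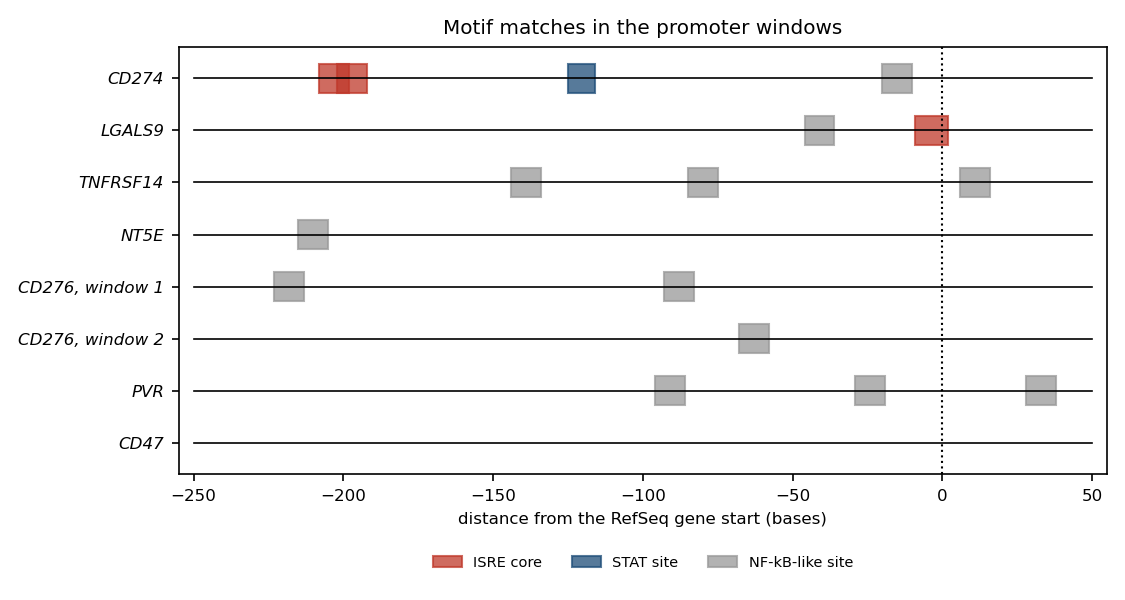
Motif matches in the RefSeq promoter windows. The x axis is the distance from the RefSeq gene start in bases and each row is 1 window. Boxes mark matches on either strand. CD276 has 2 windows. The ISRE core (red) appears in CD274 at -208 to -193 and in LGALS9 at -9 to 1, and in no other row.

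Under IFN, 6 of the 8 genes rose, and the same 6 did so with either siRNA at either time. They were CD274, PDCD1LG2, LGALS9, TNFRSF14, CD47 and NT5E. None of the 8 was called lower, and CD276 and PVR did not pass the test. PVR was called lower in all 4 comparisons once the column number was added as a block, with the values given below. The column number was taken as a pairing from the data, and the main fit had no such block. That block raised the calls over all 16062 tested genes, in either direction, from 1741, 2166, 2426 and 2370 to 3370, 4326, 4653 and 4487. These counts are for siFLuc at 8 h and 12 h, then siBOP1. The shares that follow are from the fit with no block. The share of all tested genes called higher was 5.77% with siFLuc at 8 h and 7.06% at 12 h, and 5.99% with siBOP1 at 8 h and 7.17% at 12 h. Called lower were 5.07% and 6.43% of genes with siFLuc, and 9.11% and 7.58% with siBOP1, at 8 h and 12 h. The median change of the 8 genes on the log2(TPM + 1) scale was 1.02 and 1.62 with siFLuc, and 1.18 and 1.58 with siBOP1, at 8 h and 12 h. The medians of all tested genes were -0.09, -0.06, -0.14 and -0.08. A gene was called at an adjusted p (Benjamini-Hochberg) of at most 0.05 in limma's moderated test. PDCD1LG2 and TNFRSF14 reached 1 TPM in none of the 12 mock libraries. They entered the test through their IFN libraries, so their share of the count was favoured by the filter. The median of the 8 genes includes both, and their own adjusted p values below are likewise not independent of the filter.

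The libraries carried the keratins of an epithelial line. Of 5 epithelial markers, KRT8 lay between 2086 and 3803 TPM and KRT18 between 1785 and 2862 TPM. KRT19 ran from 62.5 to 161 TPM and CDH1 from 23.8 to 105 TPM, while EPCAM was low at 1.92 to 5.48 TPM. CD3E and MS4A1, which define T and B cells, were listed at 0 in all 24 libraries. Of 4 fibroblast markers, COL1A1 ran from 5.37 to 19.3 TPM and the others stayed at or below 0.37 TPM. The 3 endothelial markers stayed at or below 0.345 TPM. Of 5 myeloid markers, CD68 ran from 38.5 to 402 TPM over the 24 libraries, and the summed level of the 5 was 44.5 to 62.2 TPM in mock and 174 to 407 TPM in IFN libraries. CSF1R, which defines macrophages, stayed at or below 0.139 TPM, LYZ at or below 0.823 TPM, ITGAM at or below 2.32 TPM and CD14 at or below 5.26 TPM. Of 3 alveolar type II markers, SFTPA1 was listed at 0 throughout, SFTPB reached 0.395 TPM and SFTPC 1.61 TPM, and these 2 were at 0 in 22 and 12 of the 24 libraries. Pearson r between libraries of a group, over genes, was 0.961 to 0.988. In bulk RNA, fewer cells that express a gene and less RNA per cell cannot be told apart.

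**Figure D2:**
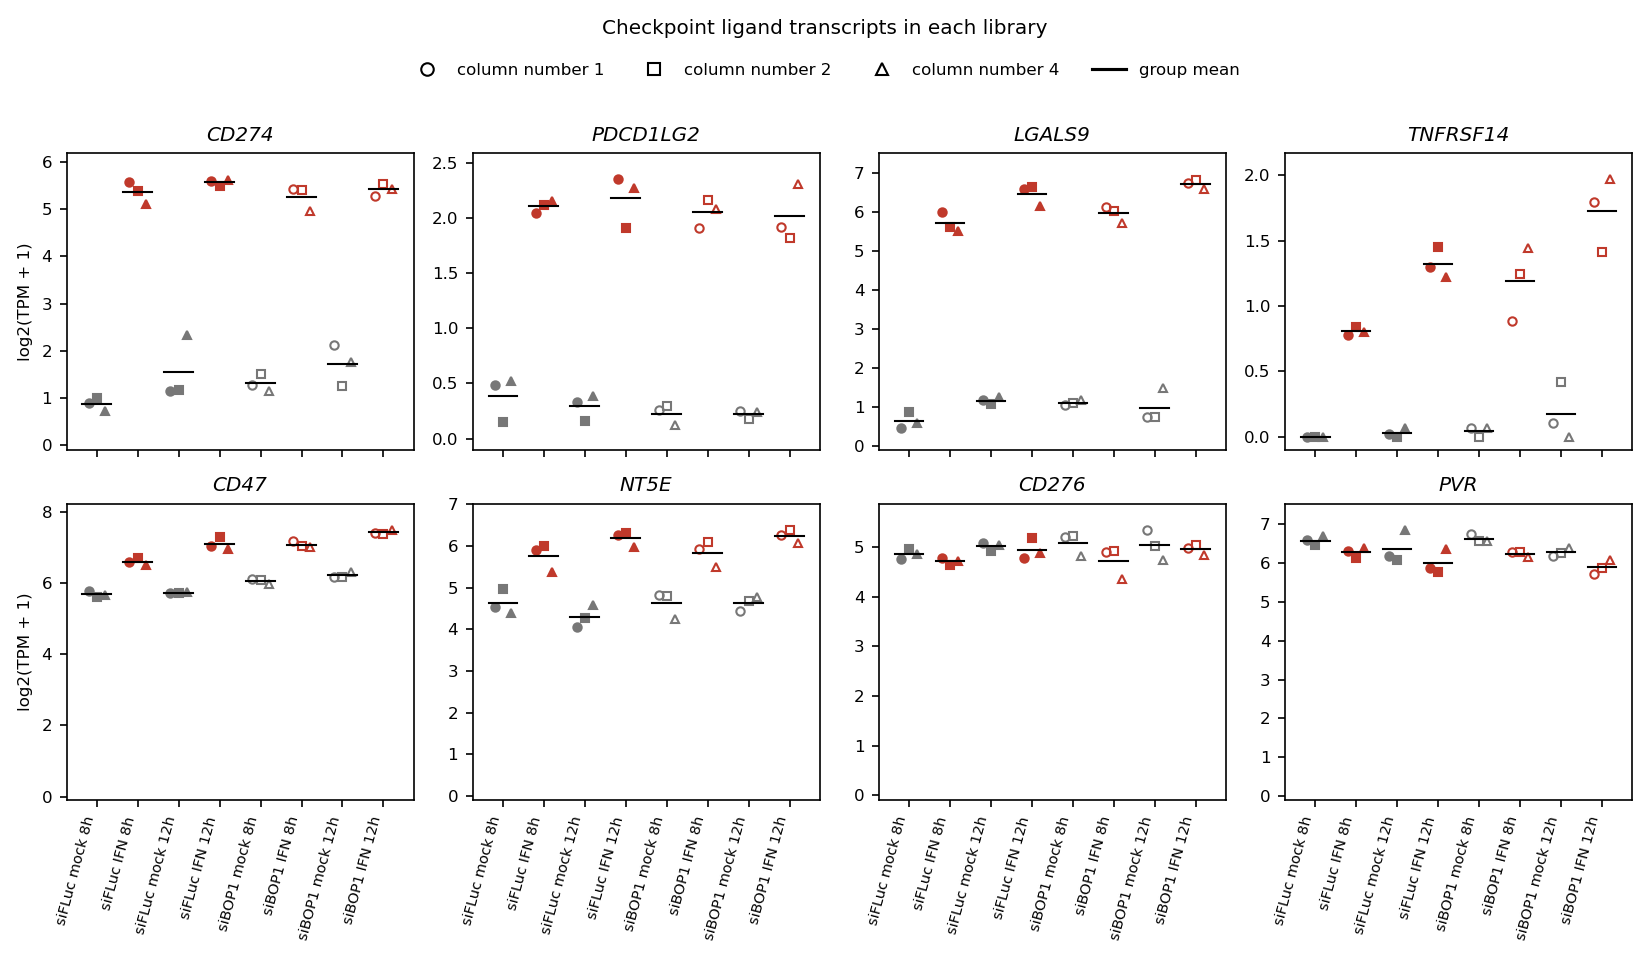
Level of each checkpoint gene in every library. The y axis is log2(TPM + 1), with its own scale in each panel. The x axis gives the 8 groups, with mock in grey and IFN in red, filled symbols for siFLuc and open symbols for siBOP1. Shapes give the number in the table's column name and bars are group means. In the panels of CD274, PDCD1LG2, LGALS9, TNFRSF14, CD47 and NT5E every IFN point lies above the mock points of its siRNA and time.

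CD274 (ENSG00000120217.14) encodes PD-L1, the main ligand of the T cell inhibitory receptor PD-1. GENCODE 29 places it on GRCh38 at chr9:5450503-5470566, plus strand, with no overlapping gene. Values of 3 libraries are given here and below in the order of the column numbers 1, 2 and 4. With siFLuc, CD274 stood at 0.84, 0.979 and 0.647 TPM in mock libraries at 8 h and at 46.7, 41.2 and 33.7 TPM with IFN. At 12 h the siFLuc mock libraries gave 1.21, 1.23 and 4.05 TPM and the IFN libraries 47.7, 44.1 and 48.5 TPM. The mock library numbered 4 at 12 h was thus the highest mock value of the 12, although it stayed well below each IFN library. With siBOP1 the levels were 1.41, 1.84 and 1.21 TPM in mock and 42.0, 41.8 and 30.4 TPM with IFN at 8 h. At 12 h they were 3.33, 1.37 and 2.41 TPM in mock and 38.2, 45.8 and 42.1 TPM with IFN. Mock and IFN libraries did not overlap in any of the 4 comparisons. Mean TPM was higher 49.3-fold and 21.6-fold with siFLuc, and 25.6-fold and 17.7-fold with siBOP1, at 8 h and 12 h.

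As differences of log2(TPM + 1), a scale that shrinks the change of weakly expressed genes, CD274 rose by 4.50 at 8 h (limma SE 0.25, adjusted p = 9.77e-12) and by 4.03 at 12 h (adjusted p = 6.33e-11) with siFLuc. With siBOP1 it rose by 3.97 at 8 h (adjusted p = 7.92e-11) and by 3.71 at 12 h (adjusted p = 2.61e-10). All 4 effects were past the threshold under all the alternative settings tried. The genes whose levels were most like CD274 over the 24 libraries were TRAFD1 (Pearson r of log2 values 0.990), NUB1 (0.990) and TRANK1 (0.990). Such a correlation is a description: the 24 libraries fall into a mock and an IFN cluster, and any gene that responds to IFN shares that split.

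PDCD1LG2 (ENSG00000197646.8) encodes PD-L2, the other ligand of PD-1. It lies at chr9:5510570-5571254 on the plus strand, 40003 bases after the end of CD274. Its level was much lower than that of CD274. With siFLuc it read 0.4, 0.109 and 0.439 TPM in mock and 3.13, 3.32 and 3.43 TPM with IFN at 8 h. At 12 h, mock libraries held 0.257, 0.117 and 0.302 TPM and IFN libraries 4.10, 2.75 and 3.81 TPM. Every siFLuc IFN library thus lay above every siFLuc mock library. The siBOP1 libraries read 0.197, 0.223 and 0.09 TPM in mock and 2.76, 3.48 and 3.22 TPM with IFN at 8 h. They read 0.186, 0.133 and 0.183 TPM in mock and 2.78, 2.53 and 3.93 TPM with IFN at 12 h. The rise on the log2(TPM + 1) scale was 1.72 and 1.88 with siFLuc (SE 0.16, adjusted p = 7.11e-08 and 1.48e-08) and 1.83 and 1.79 with siBOP1 (adjusted p = 2.43e-08 and 3.41e-08), at 8 h and 12 h. A pseudocount of 0.1 TPM, which compresses low genes less, gave 3.15, 3.52, 3.62 and 3.55 in the same order. Mean TPM was higher 10.4-fold, 15.8-fold, 18.5-fold and 18.4-fold. With IFN the mean of CD274 was 40.5 TPM and that of PDCD1LG2 3.29 TPM in siFLuc cells at 8 h, and the order of the pair was the same in all 8 groups. The levels most like PDCD1LG2 over the 24 libraries were those of XAF1 (r = 0.987), OAS2 (0.987) and USP18 (0.986).

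LGALS9 (ENSG00000168961.17) encodes galectin-9, a sugar-binding lectin that binds TIM-3 and other glycoproteins of immune cells. GENCODE 29 has it at chr17:27629798-27649560, plus strand, where AC015688.4 overlaps it on the same strand. It rose most of the 8 genes in every comparison. In siFLuc cells at 8 h LGALS9 gave 0.377, 0.814 and 0.509 TPM in mock and 63.8, 48.3 and 45.1 TPM with IFN. At 12 h the values were 1.24, 1.08 and 1.38 TPM in mock and 96.3, 100.1 and 70.7 TPM with IFN. The siFLuc IFN library numbered 4 was the lowest of its group at both times. In siBOP1 cells at 8 h the mock libraries stood at 1.06, 1.12 and 1.28 TPM and the IFN libraries at 69.3, 65.0 and 52.2 TPM. At 12 h they stood at 0.653, 0.655 and 1.80 TPM in mock and 106.0, 113.2 and 95.5 TPM with IFN. Mean TPM was higher 92.5-fold and 72.1-fold with siFLuc and 53.9-fold and 101.1-fold with siBOP1. The log2(TPM + 1) change was 5.08 and 5.32 with siFLuc (SE 0.19, adjusted p = 8.41e-15 and 3.97e-15) and 4.87 and 5.74 with siBOP1 (adjusted p = 1.74e-14 and 1.14e-15). LGALS9B and LGALS9C are near-identical copies on the same chromosome, and how shared reads were assigned is not given in the sources used here. LGALS9B ranged from 0.417 to 2.80 TPM and LGALS9C from 0.284 to 3.23 TPM over the 24 libraries. Mock group means were 0.840 to 1.49 TPM for LGALS9B, 1.09 to 1.29 TPM for LGALS9C and 0.567 to 1.24 TPM for LGALS9. The folds of LGALS9 thus rest on a low mock level of a size like that of its copies. Whether shared reads set that level was not tested. The genes most like LGALS9 in level were HLA-E (r = 0.997), LAP3 (0.997) and HLA-F (0.995).

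The 12 h siBOP1 change of LGALS9 was larger than the 8 h change by 0.88 (SE 0.27), with an adjusted p of 1.0 in limma. No gene at all passed that test (0% called), although 603 genes had an unadjusted p under 0.05. With siFLuc the same difference between times was 0.23 (adjusted p = 1.0).

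TNFRSF14 (ENSG00000157873.17) encodes HVEM, a receptor of the TNF family that serves as a ligand for the inhibitory receptors BTLA and CD160 and that binds the cytokine LIGHT. It is at chr1:2555639-2565382, plus strand, with TNFRSF14-AS1 on the opposite strand across part of it. The library kit marks strand, but whether the counting used it is not given in the sources used here, so reads of overlapping genes may be shared. The mock libraries were close to empty. All 3 siFLuc mock libraries at 8 h were listed at 0, and those at 12 h held 0.015, 0 and 0.046 TPM. With IFN, siFLuc libraries gave 0.717, 0.792 and 0.746 TPM at 8 h and 1.46, 1.73 and 1.33 TPM at 12 h. The IFN levels at 12 h lay above those at 8 h with no overlap. In siBOP1 cells, mock libraries held 0.044, 0 and 0.044 TPM at 8 h and 0.075, 0.333 and 0 TPM at 12 h. The siBOP1 IFN libraries reached 0.85, 1.37 and 1.72 TPM at 8 h and 2.47, 1.66 and 2.93 TPM at 12 h. No fold is given because 6 of the 12 mock libraries are listed at 0. On the log2(TPM + 1) scale the rise was 0.81 at 8 h (SE 0.17, adjusted p = 0.00264) and 1.29 at 12 h (adjusted p = 1.01e-05) with siFLuc. With siBOP1 it was 1.15 at 8 h (adjusted p = 4.45e-05) and 1.55 at 12 h (adjusted p = 7.11e-07). A pseudocount of 0.1 TPM moved these to 3.09, 3.75, 3.42 and 3.61. Even with IFN the gene stayed below 3 TPM, and its mean was the lowest of the 8 genes in each group. The most alike genes were UBD (r = 0.970) and PDGFRL (0.960).

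CD47 (ENSG00000196776.16) encodes the surface protein that binds SIRPA on macrophages and inhibits engulfment. It lies on the minus strand at chr3:108043094-108091862 with no overlapping gene. Unlike the preceding genes, it was abundant without IFN. The siFLuc mock libraries held 53.8, 48.1 and 49.9 TPM at 8 h and 52.0, 51.4 and 52.6 TPM at 12 h. With IFN they held 96.1, 102.6 and 89.5 TPM at 8 h and 129.9, 154.4 and 123.1 TPM at 12 h. Every siFLuc IFN library therefore lay above every siFLuc mock library. In siBOP1 cells the mock libraries stood at 67.7, 67.0 and 62.2 TPM at 8 h and 70.6, 71.1 and 77.8 TPM at 12 h. The siBOP1 IFN libraries stood at 143.2, 130.3 and 127.4 TPM at 8 h and 168.2, 165.4 and 176.7 TPM at 12 h. Mean TPM was higher with IFN 1.90-fold and 2.61-fold in siFLuc cells and 2.04-fold and 2.32-fold in siBOP1 cells. The log2(TPM + 1) change was 0.91 and 1.36 with siFLuc (SE 0.08, adjusted p = 5.25e-08 and 5.66e-11) and 1.01 and 1.21 with siBOP1 (adjusted p = 8.56e-09 and 4.53e-10). With siFLuc the 12 h change exceeded the 8 h change by 0.45 (SE 0.12), with an unadjusted p of 0.00113 and an adjusted p of 0.900 in limma. In that test 0.00623% of genes were called, which is 1 gene, and 575 genes had an unadjusted p under 0.05. The genes most like CD47 in level were LAPTM4A (r = 0.982), CACNG6 (0.977) and CD40 (0.977).

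NT5E (ENSG00000135318.12) encodes CD73, the surface enzyme that converts AMP to adenosine, which restrains T cells through adenosine receptors. It is at chr6:85449584-85495791, plus strand, with no overlapping gene. Mock siFLuc libraries held 22.2, 30.1 and 20.0 TPM at 8 h and 15.5, 18.3 and 23.1 TPM at 12 h. With IFN they held 59.0, 62.6 and 40.6 TPM at 8 h and 75.7, 79.0 and 62.2 TPM at 12 h. The library numbered 4 was the lowest IFN library at both times, and it was still above all siFLuc mock libraries. In siBOP1 cells NT5E gave 27.5, 26.7 and 18.1 TPM in mock and 60.0, 67.2 and 43.8 TPM with IFN at 8 h. At 12 h it gave 20.8, 24.8 and 26.2 TPM in mock and 75.9, 82.0 and 66.5 TPM with IFN. Mean TPM was 2.24-fold and 3.81-fold higher with IFN in siFLuc cells and 2.36-fold and 3.12-fold higher in siBOP1 cells. The log2(TPM + 1) change was 1.13 and 1.89 with siFLuc (SE 0.20, adjusted p = 0.000479 and 4.57e-07) and 1.21 and 1.60 with siBOP1 (adjusted p = 0.000187 and 4.97e-06). The siFLuc change at 12 h was larger than at 8 h by 0.76 (SE 0.28), which did not pass (adjusted p of 1.0 in limma). The genes nearest to NT5E in level were SCARB2 (r = 0.978), CD68 (0.970) and GBP2 (0.967).

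CD276 (ENSG00000103855.18) encodes B7-H3, a relative of PD-L1 that is common on tumours and whose receptor is not settled. It lies at chr15:73683966-73714518 on the plus strand with no overlapping gene. Its siFLuc levels were 26.2, 30.0 and 27.8 TPM in mock and 26.4, 23.8 and 25.2 TPM with IFN at 8 h. They were 32.8, 29.2 and 31.8 TPM in mock and 26.3, 35.2 and 28.4 TPM with IFN at 12 h. Mock and IFN libraries overlapped at both times. The siBOP1 levels were 35.7, 36.1 and 27.1 TPM in mock and 28.6, 29.05 and 19.3 TPM with IFN at 8 h, and 39.3, 31.2 and 25.7 TPM in mock and 30.4, 32.0 and 27.7 TPM with IFN at 12 h. The differences on the log2(TPM + 1) scale were -0.15 and -0.07 with siFLuc (SE 0.16, adjusted p = 0.637 and 0.846) and -0.36 and -0.07 with siBOP1 (adjusted p = 0.136 and 0.824). Their 95% intervals in limma ran from -0.48 to 0.18, from -0.40 to 0.26, from -0.69 to -0.03 and from -0.40 to 0.26, without adjustment, so none of them reaches 1 or -1, a doubling or a halving. No close partner in level was found for CD276. The nearest genes were ATP13A2 (r = 0.821), TNFRSF1A (0.749) and KIAA0319 (0.731).

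PVR (ENSG00000073008.15) encodes CD155, a ligand of the inhibitory receptors TIGIT and CD96 and of the activating receptor CD226. It is at chr19:44643798-44663583, plus strand, and overlaps AC243964.2 and MIR4531 on the opposite strand and CEACAM19 on its own. It had the highest mean TPM of the 8 genes in every mock group, although its libraries overlapped those of CD47 in siBOP1 mock cells at 12 h. In siFLuc cells at 8 h it stood at 94.6, 86.8 and 101.4 TPM in mock and 78.1, 68.1 and 82.0 TPM with IFN. At 12 h it stood at 71.1, 66.5 and 112.8 TPM in mock and 56.8, 53.6 and 81.0 TPM with IFN. The library numbered 4 was the highest of both 12 h groups, which made them overlap. In siBOP1 cells PVR gave 105.3, 92.6 and 92.5 TPM in mock and 76.4, 76.9 and 70.0 TPM with IFN at 8 h. At 12 h it gave 71.8, 75.8 and 82.4 TPM in mock and 51.8, 57.2 and 65.9 TPM with IFN. Mock and IFN libraries did not overlap in 3 of the 4 comparisons, and each IFN library lay below the mock library of the same column number in all of them. The mean TPM was 19.3% to 24.0% lower with IFN. The differences on the log2(TPM + 1) scale were -0.31 and -0.36 with siFLuc (SE 0.16, adjusted p = 0.275 and 0.153) and -0.37 and -0.39 with siBOP1 (adjusted p = 0.134 and 0.114), so PVR did not pass the test. When the column number was added as a block in limma, the adjusted p values were 0.0407, 0.0135, 0.0112 and 0.00827, and PVR was then called lower in all 4 comparisons. The libraries numbered 1 and 2 alone, with no block, also gave 4 calls (0.0371, 0.0291, 0.0136 and 0.00451). Quantile normalization gave 3 (0.0269 with siFLuc at 12 h, 0.0371 and 0.0209 with siBOP1), and a fit of just the 2 groups compared gave 1 (0.0262, siBOP1 at 8 h). Other settings weakened the difference. At 8 h it shrank to as little as -0.21 with either siRNA, and the limma adjusted p reached 0.408 with siFLuc and 0.316 with siBOP1. The all-gene medians at 8 h were themselves -0.09 with siFLuc and -0.14 with siBOP1, and median-of-ratios rescaling moved them up by 0.08 and 0.14. How much of the PVR difference goes with that shift was not tested. With 1 library left out, the siFLuc difference at 12 h shrank to as little as -0.13 (adjusted p up to 0.609). The genes most like PVR in level were SRM (r = 0.936), STK32B (0.919) and DUS1L (0.917).

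**Figure D3:**
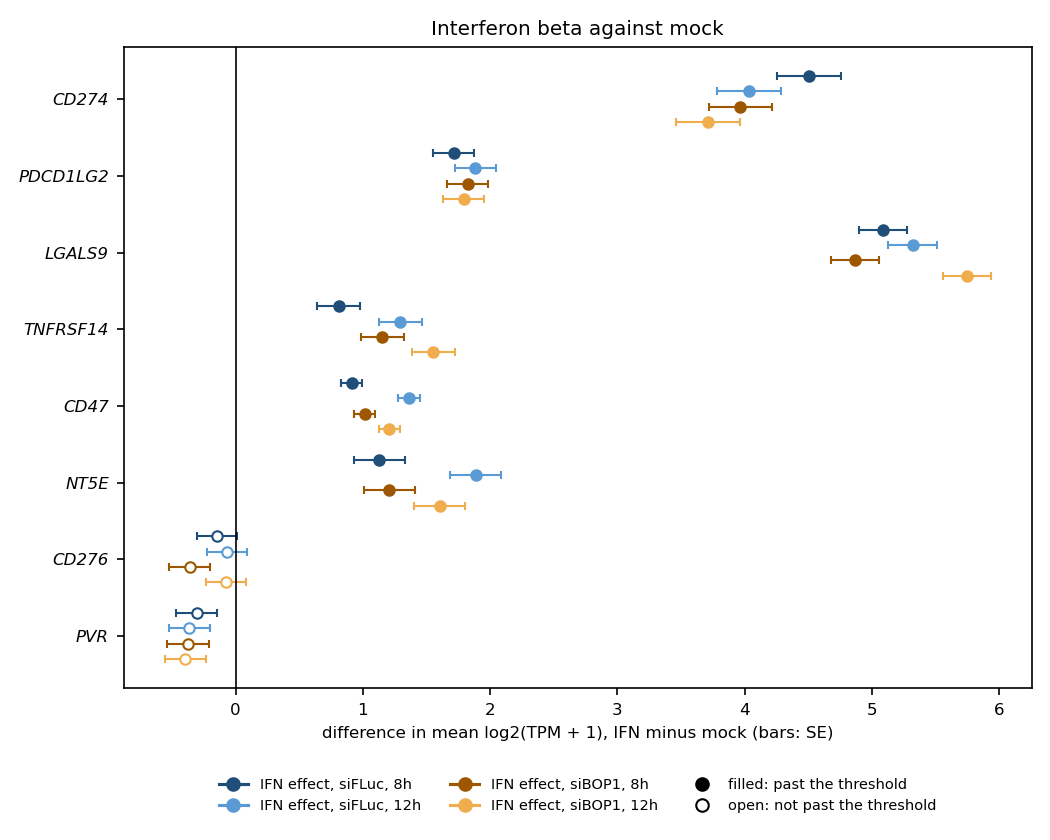
Change of each checkpoint gene with IFN. The x axis is the difference in mean log2(TPM + 1), IFN minus mock, with limma standard errors as bars. Colours give siRNA and time, and filled points passed the adjusted threshold. LGALS9 lies between 4.87 and 5.74 and CD274 between 3.71 and 4.50, while the points of CD276 and PVR are open and below 0.

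TPM values are scaled by transcript length, so they are set against each other across genes here. Reads shared with near-identical copies or overlapping genes may still shift the level of a gene, which was not tested. In siFLuc mock cells at 8 h the order of mean TPM was PVR (94.3 ± 7.34, SD, n = 3), CD47 (50.6 ± 2.89), CD276 (28.0 ± 1.91), NT5E (24.1 ± 5.29), CD274 (0.822 ± 0.167), LGALS9 (0.567 ± 0.224), PDCD1LG2 (0.316 ± 0.180) and TNFRSF14 (listed at 0). CD276 and NT5E overlapped there, as did CD274 with LGALS9 and LGALS9 with PDCD1LG2. The order of the means was the same in all 4 mock groups. In siBOP1 mock cells at 12 h PVR overlapped CD47, and PDCD1LG2 overlapped TNFRSF14. With IFN at 12 h in siFLuc cells it became CD47 (135.8 ± 16.5), LGALS9 (89.0 ± 16.0), NT5E (72.3 ± 8.88), PVR (63.8 ± 15.0), CD274 (46.8 ± 2.35), CD276 (30.0 ± 4.66), PDCD1LG2 (3.55 ± 0.710) and TNFRSF14 (1.51 ± 0.207). The libraries of LGALS9, NT5E and PVR overlapped in that group. By mean, CD47 was the highest of the 8 in each of the 4 IFN groups, whereas PVR led each mock group.

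Between the siRNAs, 1 of the 8 genes differed. CD47 was higher with siBOP1 than with siFLuc, by 29.7% of mean TPM in mock cells at 8 h, 40.7% in mock cells at 12 h, 39.1% with IFN at 8 h and 25.3% with IFN at 12 h. In each of these comparisons all 3 siBOP1 libraries lay above all 3 siFLuc libraries, as the values above show. The difference on the log2(TPM + 1) scale was 0.37 (SE 0.08, adjusted p = 0.0217), 0.48 (adjusted p = 0.00475), 0.47 (adjusted p = 0.00384) and 0.33 (adjusted p = 0.0881) in limma, so CD47 passed in 3 comparisons and missed in IFN cells at 12 h. A block by column number brought it past the threshold there too (adjusted p = 0.0212). The IFN 12 h difference was 0.42 (adjusted p = 0.0146) without the siFLuc library numbered 2. In no other setting did the IFN 12 h difference pass. It ran from 0.23 to 0.34 over the alternative settings (limma adjusted p up to 0.522). With 1 library left out it ran from 0.26 to 0.42 (adjusted p up to 0.370). The call in mock cells at 8 h was lost without either of the siFLuc libraries numbered 2 (adjusted p = 0.110) and 4 (0.0808) or the siBOP1 libraries numbered 1 (0.0966) and 2 (0.0901), and after median-of-ratios rescaling (0.0894). With only the 2 groups compared in the fit, no CD47 difference passed (adjusted p = 0.116, 0.161 and 0.110 for the 3 called). The share of all genes called in either direction was 2.16% and 1.6% in mock cells and 2% and 0.66% in IFN cells, at 8 h and 12 h.

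By level, the CD47 groups ran from siFLuc mock at 8 h (50.6 ± 2.89 TPM) and 12 h (52.0 ± 0.578 TPM), which overlapped, through siBOP1 mock at 8 h (65.6 ± 2.98 TPM) and 12 h (73.2 ± 3.99 TPM). Above these came siFLuc IFN at 8 h (96.1 ± 6.56 TPM), then siBOP1 IFN at 8 h (133.7 ± 8.44 TPM) and siFLuc IFN at 12 h (135.8 ± 16.5 TPM), which overlapped. The highest group was siBOP1 IFN at 12 h (170.1 ± 5.89 TPM). The siRNA and IFN thus each went with a higher level, and their combination gave the highest.

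The other genes did not pass in the 28 comparisons of siRNAs (adjusted p of at least 0.261). Those differences ran from -0.18 to 0.47 on the log2(TPM + 1) scale. Low genes supplied most of the larger ones. LGALS9 in mock cells at 8 h differed by 0.47 (SE 0.19, adjusted p = 0.261), and CD274 there by 0.44 (SE 0.25, adjusted p = 0.506). For both, the 3 siBOP1 mock libraries at 8 h lay above the 3 siFLuc libraries. For TNFRSF14 with IFN the difference was 0.38 at 8 h (SE 0.17, adjusted p = 0.310), without overlap, and 0.41 at 12 h (adjusted p = 0.440), with overlap. CD274 in IFN cells differed by -0.09 at 8 h (95% interval -0.61 to 0.43) and by -0.15 at 12 h (-0.68 to 0.37). These intervals are wide enough to hold a moderate change in either direction, so the data do not show that CD274 was alike with both siRNAs.

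Whether the IFN effect itself differed between the siRNAs was tested as an interaction. None of the 8 genes passed at 8 h or 12 h, and none of the 16062 genes did (0% at both times, while 353 and 259 genes had a limma p under 0.05 before adjustment). For the 8 genes the differences between the IFN effects ran from -0.54 for CD274 at 8 h (95% interval -1.27 to 0.20) to 0.43 for LGALS9 at 12 h (-0.13 to 0.98), each with an adjusted p of 1.0. For CD47 they were 0.10 (SE 0.12) at 8 h and -0.15 at 12 h.

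**Figure D4:**
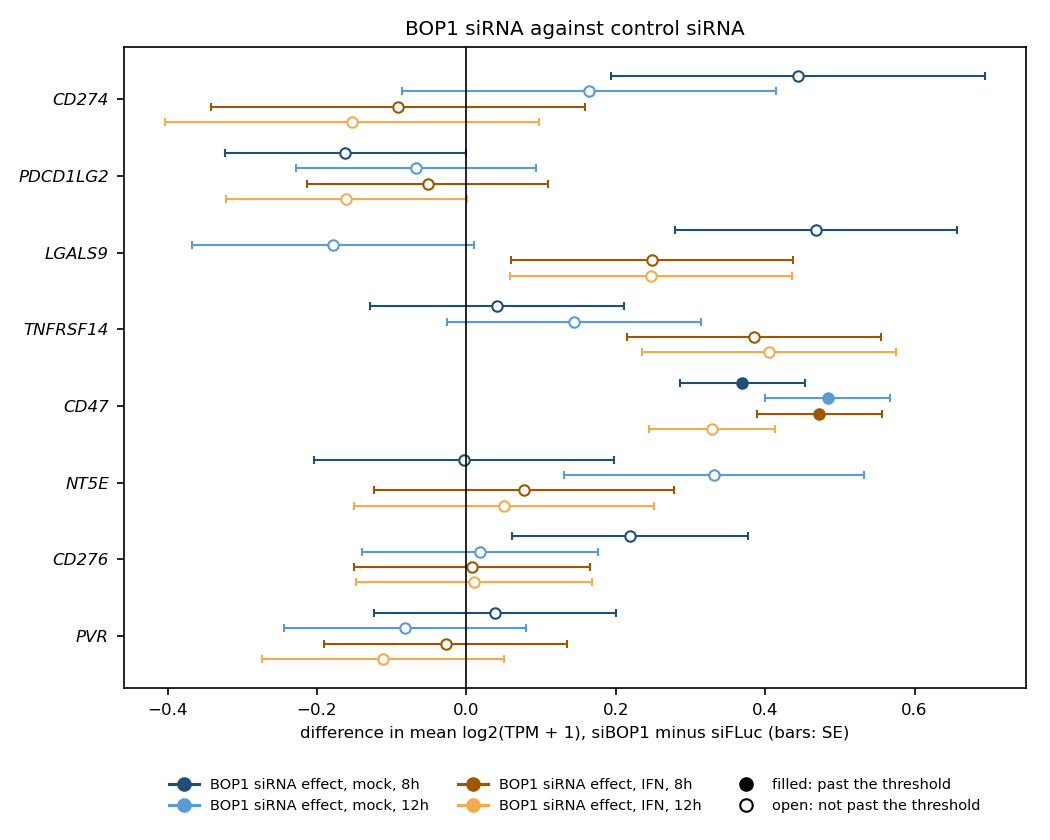
Difference of each checkpoint gene between siRNAs. The x axis is the difference in mean log2(TPM + 1), siBOP1 minus siFLuc, with limma standard errors as bars. Colours give treatment and time, and filled points passed the adjusted threshold. CD47 lies between 0.33 and 0.48 and holds the 3 filled points.

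Other genes of the same pathways were followed through 5 lists, whose counts stand beside the shares of all tested genes called with IFN (5.77% to 7.17% higher and 5.07% to 9.11% lower). Receptors and partners of the 8 genes were mostly below the level needed for a test. Of 17 listed, 5 were tested, and PDCD1 (PD-1 itself) and CTLA4 were listed at 0 in all 24 libraries. TNFSF14, which encodes LIGHT, a partner of TNFRSF14, rose with IFN by 1.33, 1.51, 1.15 and 1.43 (log2(TPM + 1), siFLuc 8 h and 12 h, then siBOP1, adjusted p of at most 0.00944) up to a group mean of 5.15 TPM. SIRPA, the receptor of CD47, fell by 0.50, 0.34, 0.70 and 0.57 (adjusted p of at most 0.0492). SIRPA was also higher with siBOP1 in mock cells at 8 h (0.48, adjusted p = 0.0247), while 0.33 in mock cells at 12 h and 0.28 and 0.09 in IFN cells did not pass (adjusted p of at least 0.178). The median change of the 5 with IFN was -0.26, -0.11, 0.06 and -0.11.

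Among 24 further ligands and enzymes that modulate T cells, 18 were tested. With siFLuc, 8 rose and 2 fell at 8 h, and 11 rose and 1 fell at 12 h. With siBOP1, 8 rose and 3 fell at 8 h, and 10 rose and 0 fell at 12 h. The median change of the list was 0.32, 0.58, 0.38 and 0.61 beside the all-gene medians given above. IDO1, which degrades tryptophan, rose by 5.69 to 6.05 up to a highest group mean of 72.1 TPM. Its mock libraries reached at most 0.545 TPM, and 7 of 12 were listed at 0. IDO1 thus entered the test through its IFN libraries, and the size of its fitted change depends on the pseudocount. No other tested gene of the 5 lists was below 1 TPM in all 12 mock libraries. CEACAM1, a ligand of TIM-3, rose by 3.88 to 4.26, HLA-E, a ligand of NKG2A, by 3.00 to 3.15 and BTN3A1, a butyrophilin sensed by gamma delta T cells, by 2.35 to 2.57, each with an adjusted p of at most 2.23e-08. FGL1, a secreted ligand of LAG3, is singled out after its values were seen. Like CD47, FGL1 was higher with siBOP1 by 0.74 in mock cells at 8 h (adjusted p = 0.0102), by 0.95 at 12 h (0.00189) and by 0.70 with IFN at 8 h (0.0148). With IFN at 12 h the difference was 0.61 and did not pass (adjusted p = 0.0664).

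All 24 genes listed for the path from the interferon receptor to PD-L1 were tested. The number that rose was 10 and 10 with siFLuc and 9 and 11 with siBOP1, and 3, 1, 3 and 2 fell. The median change was 0.15, 0.48, 0.22 and 0.46. USP18, a brake on the interferon receptor, rose by 4.28 to 4.91, STAT2 by 3.74 to 4.20 and SOCS1, an inhibitor of JAK signalling, by 3.05 to 4.04. A further pair was singled out after the values were seen, the proteins that protect PD-L1 from breakdown. CMTM6 did not pass in any comparison (29.3 to 41.7 TPM), whereas CMTM4 fell by 1.38, 1.26, 1.81 and 1.71 (adjusted p of at most 1.52e-06). CD274 transcripts were raised in those same libraries.

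The adenosine path held 16 genes besides NT5E, of which 10 were tested. With siFLuc 2 rose and 0 fell at 8 h, and 2 rose and 2 fell at 12 h, while with siBOP1 2 rose and 3 fell at both times. Over all tested genes 5.77% to 7.17% were called higher and 5.07% to 9.11% lower in these comparisons. The median change was -0.26, -0.34, -0.22 and -0.28. ADORA2A was 1 of the 2 that rose with siBOP1 at 12 h (1.03, limma adjusted p = 0.0295). Its mock libraries reached at most 1.31 TPM, with 4 of 12 listed at 0, and its mock group means at most 0.477 TPM. The IFN libraries of ADORA2A thus helped it pass the filter, and it is named for that reason. CD38, an enzyme that feeds the alternative route to adenosine, rose with IFN by 2.26, 2.58, 2.43 and 2.91, from a mean of 20.6 to 102.9 TPM in siFLuc cells at 8 h. ENTPD1 (CD39), which makes the AMP that CD73 uses, never exceeded 0.710 TPM. PANX1, a channel that releases ATP, rose by 0.51 and 0.46 with siFLuc and by 0.41 with siBOP1 at 8 h (adjusted p of at most 0.0199), and its 0.33 with siBOP1 at 12 h did not pass (adjusted p = 0.0590). ADA, which removes adenosine, fell by 0.47 with siFLuc at 12 h and by 0.44 and 0.45 with siBOP1 (adjusted p of at most 0.00638), and its -0.25 with siFLuc at 8 h did not pass (adjusted p = 0.150). SLC29A2, a nucleoside transporter, fell with siBOP1 by 0.97 and 0.72 (adjusted p = 0.00747 and 0.0444), while -0.45 and -0.47 with siFLuc did not pass (adjusted p = 0.276 and 0.210). Whether these changes differ between siRNAs or times is not shown by which of them passed.

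For CD47, 10 genes of its regulation and binding partners were tested. With siFLuc 0 changed with IFN at 8 h, and 2 rose and 2 fell at 12 h, and with siBOP1 2 fell at 8 h, and 2 rose and 1 fell at 12 h. These counts compare with 5.77% to 7.17% of all tested genes called higher and 5.07% to 9.11% called lower. The median change was -0.03, 0.03, -0.08 and -0.02. ITGB3, an integrin subunit, rose at 12 h by 0.97 with siFLuc (adjusted p = 0.00275) and by 0.65 with siBOP1 (adjusted p = 0.0401), while 0.06 and 0.20 at 8 h did not pass (adjusted p = 0.917 and 0.581). Its partner ITGAV fell by 0.43 with siFLuc at 12 h (adjusted p = 0.0310) and by 0.65 and 0.64 with siBOP1 (adjusted p = 0.00136 and 0.00147), and its -0.32 with siFLuc at 8 h did not pass (adjusted p = 0.137). ELAVL1 (HuR), an RNA-binding protein that acts on long CD47 transcripts, fell with IFN by 0.47 with siFLuc at 12 h (adjusted p = 0.0028) and by 0.31 with siBOP1 at 8 h (0.0462). Its -0.31 with siFLuc at 8 h and -0.24 with siBOP1 at 12 h did not pass (adjusted p = 0.0550 and 0.119). Between siRNAs, ELAVL1 was lower with siBOP1 by 0.52 and 0.55 in mock cells and 0.51 in IFN cells at 8 h (adjusted p of at most 0.00925). Its -0.32 in IFN cells at 12 h did not pass (adjusted p = 0.211). QPCT, a relative of the enzyme that modifies CD47 for SIRPA binding, was higher at 8 h by 0.32 in mock cells (adjusted p = 0.0441) and by 0.37 in IFN cells (0.0183). At 12 h QPCT differed by 0.26 and 0.28, which did not pass (adjusted p = 0.128 and 0.157).

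**Figure D5:**
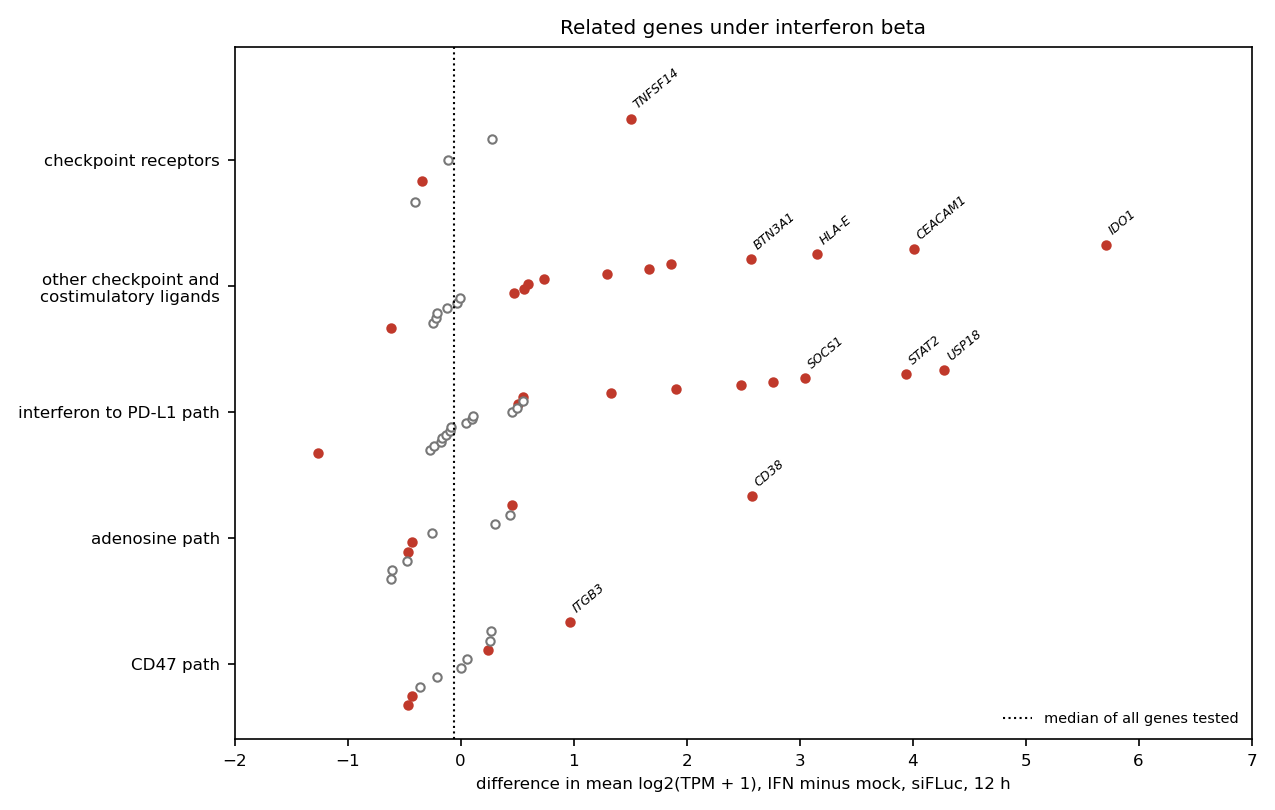
Related genes under IFN in siFLuc cells at 12 h. The x axis is the difference in mean log2(TPM + 1), IFN minus mock. Each point is a tested gene of a list (1 gene of the interferon to PD-L1 path is not drawn), filled where it passed the adjusted threshold, and the dotted line is the median of all tested genes. Points within a list are spread upwards in order of value. IDO1, USP18, CEACAM1 and STAT2 lie farthest to the right.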

How the data were processed

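The authors deposited 1 table of TPM values for 24 libraries of A549 RNA, made per the labels' protocols with an Illumina stranded mRNA kit. The aligner, quantification tool and genome build are not given in the sources used here. TPM values sum to a fixed total, so transcripts that climb steeply push down the rest. Columns were matched to samples by name. For 8 columns, which end in 4, the name gives the group only, since the labels number replicates to 3.

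The filter of 1 TPM in 3 libraries left 16062 genes. Their log2(TPM + 1) values were fitted in limma (version 3.58.1, R 4.3.3, eBayes with a trend), with the 24 libraries in 1 fit, a mean for each group, no block, and Benjamini-Hochberg adjustment over genes (threshold 0.05). The code was tested on simulated data. The labels do not say that replicates were separate cultures, so p-values measure the spread between these libraries, which may be technical. Deviations of same-numbered libraries from their group means correlated at 0.115 to 0.508, above 0.1 for 24 of 24 pairs, so the column numbers were taken as a pairing from the data. That pairing entered only the settings with a block, not the main fit. Symbols matched Ensembl IDs without versions. Positions are from GENCODE 29. List genes named are those past the threshold in an IFN or siRNA comparison with a group mean of at least 5 TPM, up to 4 per list by size of change. The 8 genes, the lists and the tests were chosen with earlier results of these data known. A few items that these rules name are not reported here.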

Additional observations from a re-analysis of the deposited data

How the results depend on the processing

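The 6 genes that rose with IFN kept direction and call under every setting in which they were tested. A stricter filter, on the mean TPM over all libraries, left out PDCD1LG2 and TNFRSF14, so these were not tested under it. The depth is unknown, an exact permutation test of 3 against 3 libraries cannot go below 0.1, and the adjusted p of a lone gene moves with how many genes are called. In the orders below the IFN effects are siFLuc 8 h and 12 h, then siBOP1 8 h and 12 h, and the siRNA effects are mock 8 h and 12 h, then IFN 8 h and 12 h.

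Over all genes, the IFN effects had 1741, 2166, 2426 and 2370 calls and the siRNA effects 347, 257, 322 and 106. A replicate block by column number gave 3370, 4326, 4653 and 4487, and 1364, 1231, 1415 and 606. That block also raised the checkpoint genes called between siRNAs with IFN at 12 h from 0 to 1 (CD47) and called PVR lower 4 times, and it changed no other call of the 8 genes. PVR was also called lower with IFN 4 times in the libraries numbered 1 and 2, with or without their block, 3 times after quantile normalization and once when just the groups compared were fitted. The replicate block over the libraries numbered 1 and 2 alone gave 3087, 4063, 4176 and 4474, and 761, 493, 925 and 219. Those libraries with no block gave 3403 and 3831 for IFN at 12 h (siFLuc, siBOP1) and 589 for the siRNA effect with IFN at 8 h. When the fit held just the groups under comparison, the IFN effect with siFLuc at 12 h had 951 calls and the siRNA effects 41, 10, 23 and 1, with 0 checkpoint genes called in any. Median-of-ratios rescaling, which moved the all-gene median of the siBOP1 8 h IFN effect by 0.14, also left 0 checkpoint genes called between siRNAs in mock cells at 8 h.

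Interactions held few calls throughout. Without a filter there were 4 for siRNA by IFN at 8 h and, for time by IFN, 3 with siFLuc and 2 with siBOP1. The libraries numbered 1 and 2 gave 1, 7 and 1 for the same tests, and 11 with siFLuc under their replicate block. The column block gave 4 with either siRNA, the groups compared alone 2 with siFLuc, eBayes without the trend 1 with siBOP1, and median-of-ratios or quantile scaling 0 with siFLuc. The cause was not tested for any of these shifts.

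Leaving out 1 library gave 1233 to 1534, 1520 to 2388, 1596 to 2179 and 1541 to 2513 calls for the IFN effects, and 138 to 255, 74 to 203, 123 to 200 and 32 to 128 for the siRNA effects. With 1 left out, the checkpoint genes called between siRNAs were 0 to 1 in mock cells at 8 h and with IFN at 12 h, and the time by IFN test with siFLuc had 0 to 1 calls. The CD276 difference with IFN at 12 h ran from -0.18 to 0.019 with siFLuc, above 0 without the IFN library numbered 1, and from -0.22 to 0.079 with siBOP1, above 0 without the mock library numbered 1. PVR with siFLuc at 12 h passed without the IFN library numbered 4 (-0.55, adjusted p = 0.0264), which raised the checkpoint genes called there from 6 to 7. Of 49 further differences of the 8 genes that were not called, 25 changed sign and 0 passed the threshold in at least 1 setting.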
